A study of Mus musculus with 8 samples.

Results

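The 6 genes described here, Fmo2, P2ry14, Kng1, Kng2, Dpep1 and Esm1, are transcribed in the marrow stromal cells of the bone shaft, and they were chosen by their measured levels, which were low in marrow stromal cells after fracture. They are 6 of the 26180 genes detected in at least 3 cells. The low levels are therefore how the genes were chosen and not a result, and all values of these genes in marrow stromal cells are given as a description without a test. The question followed through the data is how far the low levels went with fewer cells that hold Adipoq, the gene of the adipocyte hormone adiponectin, and how far with fewer molecules in the cells that still hold it.

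Single cells had been isolated from the femurs of C57BL/6 females aged 12 weeks. In the Fracture group the left leg had been broken by three-point bending at 10 weeks of age and held with a nail inside the marrow cavity, and the bone was taken at day 14, with the nail removed. The Control group came from wild-type females of the same age with an intact femur. In both groups blood cells had been depleted with magnetic beads against lineage markers, CD45 and CD117, and by the numbers in the labels each group held 2 cell preparations with 2 droplet libraries each. The labels do not say that the 2 libraries of a number came from 1 cell suspension, and the sums, n and p-values given here assume it. The sources used here do not give how many animals entered a preparation, and the nail passes through the marrow cavity, so the effects of the break and of the nail on marrow cells cannot be told apart. The 8 libraries held 56543151 to 89126291 unique molecular identifiers (UMIs), each standing for 1 captured molecule, and 45328 of 48903 barcodes passed the filters. Most barcodes removed were from Control bone. A Control library lost 371 to 651 barcodes for mitochondrial UMIs and 190 to 644 for too few genes, and a Fracture library 0 to 2 and 1 to 8. The smallest deposited barcode held 1 UMI in the Control group and 1929 UMIs in the Fracture group, and libraries shared at most 23 barcodes.

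Stromal cells of the adult marrow that hold Cxcl12 and the leptin receptor form a network around the sinusoids, where they supply blood stem cells and B cell precursors with chemokine and growth factors and share a transcriptional programme with adipocytes. In the shaft, the diaphysis, most of them transcribe Adipoq, whereas stromal cells near the growth plate, the metaphysis, transcribe more matrix genes. Among the 6 genes, Fmo2 codes for a flavin-containing monooxygenase, an enzyme that oxygenates foreign and endogenous compounds with a soft nitrogen or sulphur. P2ry14 codes for a G protein-coupled receptor of UDP-glucose and related nucleotide sugars. Kng1 and Kng2 are the neighbouring mouse kininogen genes, whose proteins inhibit cysteine proteases and release bradykinin when cut by kallikreins. Dpep1 codes for a membrane-anchored dipeptidase that takes part in glutathione breakdown and converts leukotriene D4 to leukotriene E4. Esm1 codes for endocan, a secreted dermatan sulphate proteoglycan best known from endothelial tip cells.

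All 6 genes are annotated as protein-coding in GENCODE M21 on GRCm38. Fmo2 lies on chromosome 1 from 162874317 to 162898726 on the minus strand. P2ry14 lies on chromosome 3 from 59113855 to 59153618 on the minus strand, inside Med12l on the opposite strand. Kng2 occupies chromosome 16 from 22985854 to 23029482 on the minus strand and Kng1 occupies 23057865 to 23082078 on the plus strand, with 28382 bases between them. Adipoq itself begins 64457 bases beyond Kng1, at 23146536, so that the kininogen genes and Adipoq fit into 172175 bases. Dpep1 lies on chromosome 8 from 123186242 to 123201812 on the plus strand, inside the annotated span of Gm20388 on the same strand. Esm1 lies on chromosome 13 from 113209659 to 113218098 on the plus strand and overlaps Gzmk on the minus strand. Whether reads were counted by strand is not given in the sources used here, so reads of P2ry14 and Med12l, or of Esm1 and Gzmk, might not be separable, and strand would not separate those of Dpep1 and Gm20388. Kng1 and Kng2 are paralogues: 10.7% of the words of 50 bases in the last 500 bases of the Kng1 transcripts also occur in Kng2 transcripts, and 19.7% of those of Kng2 occur in Kng1. The division of UMIs between Kng1 and Kng2 is therefore uncertain.

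The promoters of Fmo2, Kng2 and Esm1 are shown because these genes kept different amounts of their level in Adipoq-positive cells after fracture. The sequences are from RefSeq on GRCm38.p6, run from 250 bases before to 50 bases after the annotated start, and are written 5′ to 3′ on the strand of the gene. Capitals mark matches to TTGCNNAA, a core of C/EBP motifs, or TAAACA, a core of FOX motifs, on either strand.
Fmo2: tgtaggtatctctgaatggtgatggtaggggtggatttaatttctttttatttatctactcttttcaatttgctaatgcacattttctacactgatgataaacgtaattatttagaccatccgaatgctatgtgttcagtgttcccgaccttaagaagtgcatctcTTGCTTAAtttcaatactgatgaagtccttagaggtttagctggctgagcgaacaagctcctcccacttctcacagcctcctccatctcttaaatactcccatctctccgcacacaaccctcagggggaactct
Kng2: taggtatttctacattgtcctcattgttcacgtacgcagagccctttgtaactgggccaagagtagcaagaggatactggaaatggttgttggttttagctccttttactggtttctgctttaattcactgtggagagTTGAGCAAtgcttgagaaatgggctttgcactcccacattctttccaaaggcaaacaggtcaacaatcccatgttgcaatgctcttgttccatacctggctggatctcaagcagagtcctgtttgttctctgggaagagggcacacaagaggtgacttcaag
Esm1: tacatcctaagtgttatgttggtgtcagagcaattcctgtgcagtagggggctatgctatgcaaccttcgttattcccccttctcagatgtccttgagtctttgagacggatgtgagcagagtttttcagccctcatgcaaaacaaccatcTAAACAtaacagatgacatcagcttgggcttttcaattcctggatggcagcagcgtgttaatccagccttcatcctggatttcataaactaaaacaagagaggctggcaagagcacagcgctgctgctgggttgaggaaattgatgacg
The Fmo2 stretch is chr1:162898709-162899008 on the minus strand, the Kng2 stretch chr16:23029052-23029351 on the minus strand and the Esm1 stretch chr13:113209409-113209708 on the plus strand. A further Fmo2 start listed in RefSeq, with the window chr1:162898444-162898743, held a TTGCNNAA match 69 bases and a TAAACA match 27 bases before it. In the windows shown, Fmo2 held a TTGCNNAA match 84 bases before the start, Kng2 held one 112 bases before it, and Esm1 held a TAAACA match 99 bases before it. Of 32851 mouse promoters of the same length, 10.8% held TTGCNNAA and 13.4% held TAAACA. The EBF motif CCCNNGGG, present in 13.7% of all promoters, was absent from these windows and from the windows listed for P2ry14, Dpep1 and Adipoq. The Dpep1 and Adipoq windows held none of the 3 motifs. For P2ry14 the window chr3:59130713-59131012 held 2 TTGCNNAA matches. The overlapping windows chr3:59131279-59131578 and chr3:59131069-59131368 held the same TAAACA match, and the window chr3:59153443-59153742 held none. Each match is a description of these letters only. No entry was found for Kng1.

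Marrow stromal cells (BMSC-like) were identified by clustering in which the 6 genes and Adipoq took no part. The cluster held 5939 cells, of which 2316 and 1588 came from the Control preparations and 986 and 1049 from the Fracture preparations. Over the cells of both groups together it carried 8 of the 8 marker genes fixed for it, among them Cxcl12, Lepr, Kitl and Ebf3. The markers were not counted for each group, so the name is less certain for Fracture cells. In this class as a whole, Fmo2 measured 313 and 317 CPM (UMIs of a gene scaled to the same total in every preparation) in the Control preparations and 3.41 and 7.49 CPM in the Fracture preparations, 1.73% of the Control mean. P2ry14 went from 52.1 and 82.8 CPM to 0.52 and 2.25 CPM, or 2.05%. Esm1 went from 1120 and 1123 CPM to 34.5 and 49.4 CPM, or 3.74%. These 3 genes kept the least, whereas Kng1, Kng2 and Dpep1 kept 8.5%, 7.30% and 9.27%. Kng1 was at 414 and 529 CPM in Control and at 35.3 and 44.9 CPM in Fracture cells. For Kng2 the levels were 413 and 503 CPM against 30.1 and 36.8 CPM, and for Dpep1 405 and 402 CPM against 34.7 and 40.2 CPM. No gene overlapped between the groups. The preparations were below Control without overlap for 6 of 6 genes, while 51.1% of all 14702 genes tested were lower without overlap in the same cells, and this choice of genes fixes the former count. The edgeR test called 50.6% of all genes in either direction. Adipoq itself measured 2182 and 2278 CPM against 99.9 and 129 CPM, 5.13% of Control. The kininogens and Dpep1 thus lay above Adipoq in the share they kept, and Fmo2, P2ry14 and Esm1 below it. The class markers Cxcl12 and Lepr were low in Fracture cells as well. Cxcl12 went from 20720 and 21087 CPM to 1380 and 1690 CPM, 7.34% of Control. Lepr went from 1065 and 1350 CPM to 81.4 and 78.4 CPM, 6.62%. These shares depended on which cells entered the class. On the normalised scale of edgeR the log2 differences of Fmo2, Kng1 and Esm1 were -5.66, -3.38 and -4.56, against -4.43, -2.19 and -3.38 at a clustering resolution of 0.5, which kept 2131 and 1497 Control and 424 and 500 Fracture cells, and -3.54, -1.58 and -2.51 with a gate on Cxcl12 in place of clusters, which kept 1572 and 1236 Control and 191 and 221 Fracture cells.

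To separate cells from levels, 3000 UMIs were drawn at random from every cell, and a cell was called Adipoq-positive when these held at least 1 Adipoq UMI. In Control bone 1447 of the cells of preparation 1 and 1137 of preparation 2 were positive and 542 and 304 negative, whereas in Fracture bone 63 and 96 were positive and 923 and 953 negative. The positive share was 72.8% and 78.9% in Control and 6.39% and 9.15% in Fracture preparations, a mean of 75.8% ± 4.35 (SD, n = 2) against 7.77% ± 1.95. The share decreased by 68.1 points and the groups did not overlap, with p = 0.333 in a two-sided exact permutation test, the smallest value that 2 preparations a group can give. The Fracture mean also depended on the class and on the splitting gene: it was 31.9% (Control 89.4%) with the Cxcl12 gate, 14.6% (77.6%) at a resolution of 0.5 and 19.3% (80.9%) when Lepr replaced Adipoq. Another 474 Control and 0 Fracture cells of the class had fewer than 3000 UMIs and were left out. Among erythroid-like cells, which lack the gene, 1.6%, 1.46%, 0.862% and 0.304% held an Adipoq UMI in the same order of preparations. A cell that stopped transcribing Adipoq is counted as negative, so such a cell and a lost cell cannot be told apart.

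In the Adipoq-positive cells Fmo2 stood at 472 and 424 CPM in Control and at 67.2 and 103 CPM in Fracture preparations, 18.9% of the Control mean. P2ry14 stood at 78.9 and 112 CPM against 8.67 and 20.2 CPM, 15.2%, the Fracture values resting on 4 and 14 UMIs. Every Fracture value of this oxygenase and this receptor was far below both Control values, a direction that the choice of the genes favours. Selecting cells for Adipoq did not match the groups, since Adipoq itself was at 61.8% of Control in them.

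Esm1 kept more, at 1665 and 1474 CPM against 581 and 601 CPM, 37.6%. Dpep1 was at 596 and 524 CPM in Control and 221 and 260 CPM in Fracture cells, 43.0%. The kininogens kept the most. Kng1 was at 611 and 690 CPM against 318 and 377 CPM, 53.5%, and Kng2 at 620 and 663 CPM against 347 and 345 CPM, 53.9%. Adipoq had 3360 and 3085 CPM against 2045 and 1935 CPM in the same cells, 61.8%, and its level is bounded from below by the selection. The 6 genes were lower without overlap here as well, as were 36.8% of 12904 genes, and their median log2 difference was -1.31, beside -0.13 over all genes tested. Between the 2 libraries of a preparation the values varied more widely in Fracture bone, where few cells were positive: Esm1 measured 725 CPM in 39 cells and 361 CPM in 24 cells of preparation 1, and 657 and 494 CPM in 61 and 35 cells of preparation 2. All 4 Fracture libraries remained under the lowest Control library, at 1470 CPM.

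**Figure D1:**
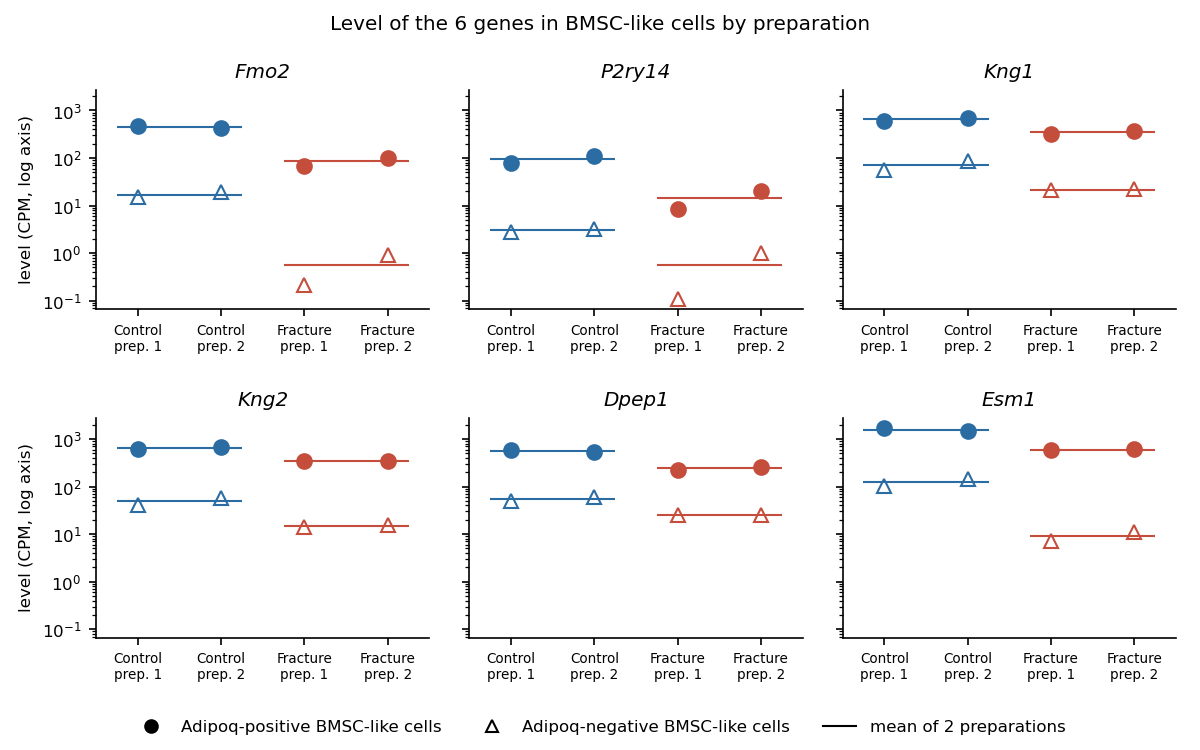
Level of each of the 6 genes in CPM (log axis) in Adipoq-positive (circles) and Adipoq-negative (triangles) BMSC-like cells of each Control and Fracture preparation, with lines at the means of 2 preparations. Fracture points lie below Control points of the same kind of cell in every panel, for Fmo2 at 67.2 and 103 CPM against 472 and 424 CPM in positive cells.

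The Adipoq-negative cells of the class held the genes at low levels in both groups. In Control bone their level was 3.17% and 4.53% of that of positive cells for Fmo2, 9.06% and 12.6% for Kng1 and 8.52% and 11.6% for Dpep1. For Fmo2 the negative cells measured 15 and 19.2 CPM in Control and 0.217 and 0.901 CPM in Fracture preparations, the last from 2 and 9 UMIs, 3.27% of Control. Esm1 measured 101 and 143 CPM against 7.16 and 11.2 CPM, 7.54%. These were the deepest differences among negative cells.

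Dpep1 kept the most in negative cells, at 50.7 and 60.8 CPM against 25.4 and 24.9 CPM, 45.1%. The kininogens kept 30.2% (Kng1, 55.3 and 87.1 CPM against 21.1 and 21.9 CPM) and 30.3% (Kng2, 41.2 and 56.7 CPM against 14.2 and 15.4 CPM). P2ry14 was at 2.80 and 3.20 CPM against 0.109 and 1.00 CPM, with 1 and 10 UMIs in Fracture cells. The groups did not overlap for 6 of 6 genes, beside 43.3% of all genes lower without overlap, and the median log2 difference of the genes was -2.08 against -0.11 over all genes. At the clustering resolution of 0.5, chosen after the data were seen, the log2 differences in negative cells were -0.25 for Dpep1, -0.66 for Kng1, -1.01 for Kng2, -1.96 for P2ry14, -2.93 for Esm1 and -4.00 for Fmo2. How much Dpep1 and Kng1 kept in negative cells thus depended on which cells were put in the class.

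The difference over all BMSC-like cells was divided with the UMIs of positive cells as weights, which made up 64.5% and 74.1% of the UMIs of the class in Control and 4.77% and 6.48% in Fracture preparations. With the weights held at those of Control, the log2 difference left by the levels alone was -2.42 for Fmo2 of a total of -5.90, and -2.72 for P2ry14 of -5.65. It was -1.45 of -4.75 for Esm1 and -1.22 of -3.44 for Dpep1. The kininogens had the smallest level part, -0.93 of -3.57 for Kng1 and -0.91 of -3.78 for Kng2. The remaining part, which goes with the changed mix of positive and negative cells, made up 51.9% of the log2 total for P2ry14, 59.0% for Fmo2, 64.7% for Dpep1, 69.5% for Esm1, 73.9% for Kng1 and 75.9% for Kng2. Taken the other way round, with the levels held at those of Control, the changed mix alone gave -2.93 for Fmo2, -3.03 for P2ry14, -2.19 for Kng1, -2.48 for Kng2, -2.27 for Dpep1 and -2.47 for Esm1. In that order the mix part was slightly under the level part for Fmo2 and only slightly over it for P2ry14 and Esm1. The division is arithmetic on 4 preparations and depends on this order and on how cells are split.

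A finer split by the number of Adipoq UMIs after thinning (0, 1 to 2, 3 to 5, 6 to 10 and 11 or more), chosen after the data were seen, moved more of the difference to the mix. The level part became -1.62 for Fmo2, -2.22 for P2ry14, -0.51 for Kng1, -0.44 for Kng2, -0.75 for Dpep1 and -0.84 for Esm1, and the mix part was then between 60.5% (P2ry14) and 88.4% (Kng2) of the log2 total. A split by Lepr in place of Adipoq moved it the other way, with a mix part of 18.3% for P2ry14 to 37.9% for Esm1. Over 13 settings the mix part ranged from 33.6% to 72.4% for Fmo2, from 18.3% to 60.5% for P2ry14, from 36.2% to 85.7% for Kng1, from 35.1% to 88.4% for Kng2, from 32.7% to 78.3% for Dpep1 and from 37.9% to 82.2% for Esm1. Which part is the larger therefore depends on the order of the division and on the splitting gene. A level part remained for all 6 genes in each of the 13 settings. The choice of the genes by low levels in these cells favours that direction, and the settings divide the same preparations again, so it is a description only.

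**Figure D2:**
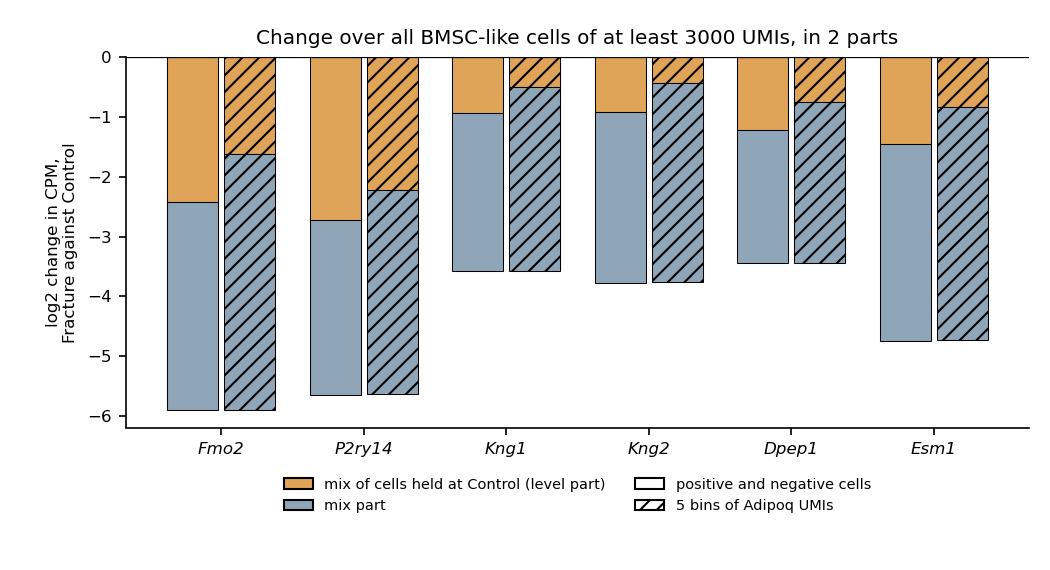
Log2 difference of Fracture from Control over all BMSC-like cells for each gene, stacked as the part at Control weights (level) and the part of the changed mix, with plain bars for the positive and negative split and hatched bars for 5 bins of Adipoq UMIs. The level part is largest for P2ry14, at -2.72, and smallest for Kng2, at -0.91, and it shrinks in the finer split for every gene.

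Cells with the same number of Adipoq UMIs were then set side by side. At 11 or more Adipoq UMIs, with 620 and 397 Control and 18 and 26 Fracture cells, Adipoq itself did not differ beyond the spread, the Fracture mean being 103% of Control. In these cells Kng2 was at 757 and 774 CPM in Control and 760 and 622 CPM in Fracture preparations, 90.3% of the Control mean, and the groups overlapped. Kng1 was at 76.2%, Esm1 at 66.1% and Dpep1 at 64.3%, without overlap.

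Fmo2 in the same cells measured 548 and 441 CPM against 143 and 178 CPM, 32.4%. P2ry14 measured 90.3 and 139 CPM against 19.0 and 11.8 CPM, 13.4%, with 4 UMIs in all Fracture cells of this bin. Thus at a matched Adipoq level Kng2 overlapped with Control in Fracture preparation 1 and lay below it in preparation 2, whereas Fmo2 and P2ry14 lay below Control in both. At the low end, among cells with 1 to 2 Adipoq UMIs (144 and 100 Control, 20 and 31 Fracture cells), Fmo2 was at 2.77% of Control. That value rested on 3 UMIs in all Fracture cells of the bin. Esm1 was at 15.5%, while Kng1, Kng2 and Dpep1 were at 39.6%, 39.3% and 32.1%. How many of these Fracture cells held Adipoq only as free RNA was not tested. Adipoq was at 55.6% of Control in this bin. Kng2 at 11 or more Adipoq UMIs was the only case, among 6 genes and 5 bins, in which the groups overlapped. The choice of the genes by low levels favours this, and no count over all genes was made in the bins.

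**Figure D3:**
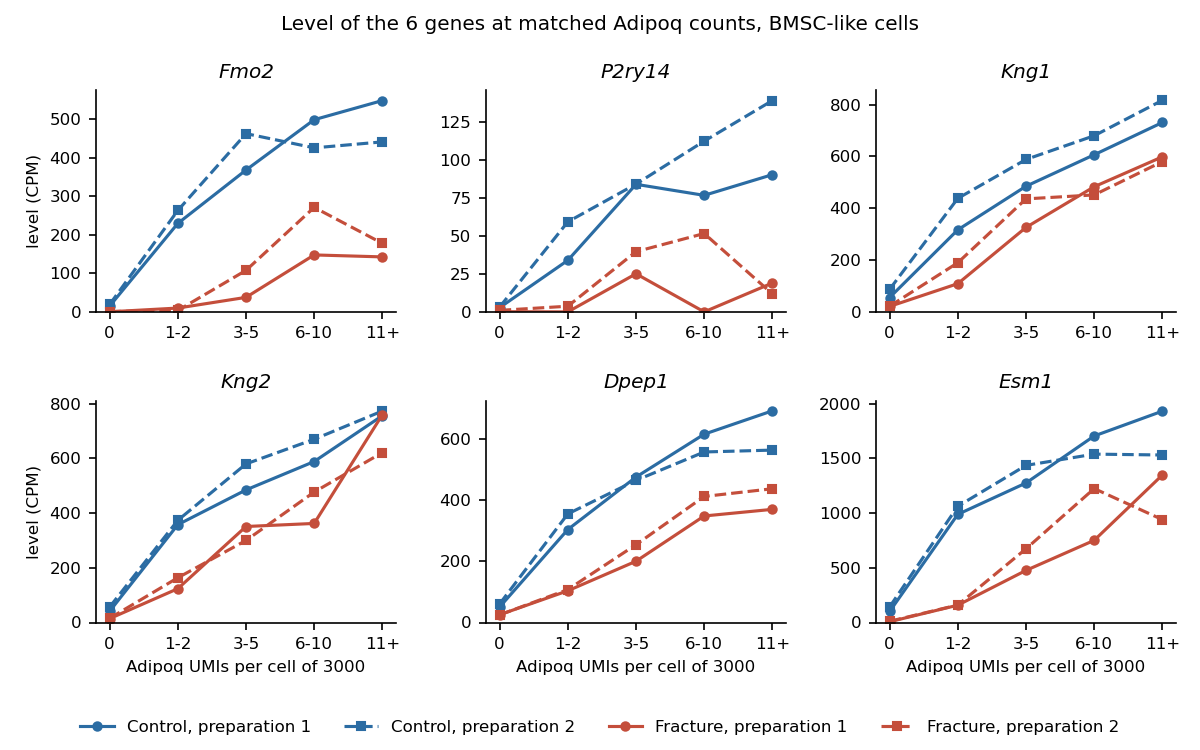
Level of each gene in CPM by the number of Adipoq UMIs in cells thinned to 3000 UMIs, with 1 line for each of the 4 preparations. The lines of Kng2 meet at 11 or more Adipoq UMIs, at 622 to 774 CPM, while those of Fmo2 stay apart, at 143 and 178 CPM in Fracture against 441 and 548 CPM in Control.

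Expressed per 100 Adipoq molecules of the same positive cells, Kng1 gave 18.2 and 22.4 molecules in Control and 15.6 and 19.5 in Fracture preparations, and Kng2 gave 18.5 and 21.5 against 16.9 and 17.8. The kininogen ratios lay close together, with overlap for Kng1. Dpep1 gave 17.7 and 17 against 10.8 and 13.4, and Esm1 49.6 and 47.8 against 28.4 and 31.1. Fmo2 gave 14.1 and 13.8 against 3.28 and 5.30, and P2ry14 2.35 and 3.62 against 0.42 and 1.05. Esm1, Dpep1, Fmo2 and P2ry14 were thus lower relative to Adipoq without overlap, and Kng2 by a small margin. These ratios depend on the selection, which bounds the Adipoq level from below. Over all BMSC-like cells Dpep1 was higher relative to Adipoq, at 18.6 and 17.7 in Control against 34.8 and 31.1 in Fracture cells. So were Kng1 (19.0 and 23.2 against 35.3 and 34.8) and Kng2 (18.9 and 22.1 against 30.1 and 28.5). Fmo2, P2ry14 and Esm1 were lower there as well.

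The share of cells in which a gene was detected was also read at 3000 UMIs a cell. Among positive cells Fmo2 was detected in 65.2% and 62.7% in Control and in 14.3% and 21.9% in Fracture preparations, without thinning in 79.4% and 81.8% against 25.4% and 37.5%. P2ry14 was detected in 18.6% and 27.0% against 3.18% and 5.21%, and Esm1 in 93.9% and 94.9% against 58.7% and 60.4%. The kininogens were detected in 77.7% and 79.5% (Kng1) and 77.3% and 80.9% (Kng2) of Control cells and both in 55.6% and 57.3% of Fracture cells. Dpep1 was detected in 76.9% and 74.9% against 52.4% and 43.8%. Each of these shares was lower after fracture without overlap. The choice of the genes favours this, and no count over all genes was made for detection. In level, 36.8% of all 12904 genes tested were lower without overlap in positive cells. In erythroid-like cells, which should lack these genes, the largest share was 2.00% (Esm1, Control preparation 1). Median depth before thinning was 5797 and 7409 UMIs in Control and 5887 and 6150 UMIs in Fracture positive cells.

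A positive Control cell held on average 4.10 and 4.20 of the 6 genes, and a positive Fracture cell 2.40 and 2.46. Cells with none of the 6 made up 1.73% and 0.616% of positive cells in Control and 12.7% and 13.5% in Fracture preparations, and cells with 3 or more made up 90.5% and 92.9% against 49.2% and 52.1%. Most positive Fracture cells therefore still held at least 1 of the genes, but with fewer of them together. Negative cells held 0.611 and 0.803 genes on average in Control and 0.209 and 0.218 in Fracture preparations, and 63.8% and 58.2% against 84.0% and 83.2% held none.

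**Figure D4:**
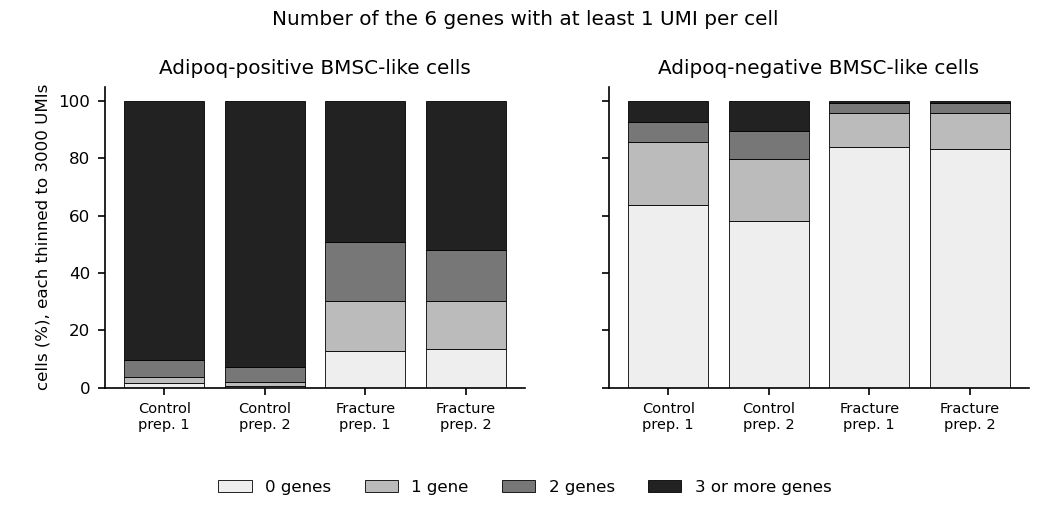
Percentage of Adipoq-positive and Adipoq-negative BMSC-like cells that held UMIs of 0, 1, 2 or at least 3 of the 6 genes after thinning, by preparation. At least 3 genes were held by 90.5% and 92.9% of positive Control cells and by 49.2% and 52.1% of positive Fracture cells.

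The positive cells of Fracture bone also differed from those of Control bone in genes outside the 6. With the quasi-likelihood test of edgeR and Benjamini-Hochberg adjustment, 1.12% of 12904 genes were called in positive cells in either direction. Of 16 other genes of the marrow adipo-lineage, 2 were called lower in positive cells, Lepr (log2 difference -1.80, adjusted p = 0.042 in edgeR) and the stem cell factor gene Kitl (-1.35, adjusted p = 0.042). The median of the list was -0.87 beside -0.04 over all genes. At an unadjusted p under 0.05, 13 of the 16 passed, as did 3066 of all 12904 genes, and DESeq2 called 13 of the 16 and 1365 of all genes. Over all BMSC-like cells 16 of 16 were called lower with a median of -3.31, beside 3731 of all 14702 genes called lower there. The list was chosen with earlier results of these data known. The adipogenic regulators Pparg and Cebpa differed by -0.16 and -0.08 in positive cells and passed neither threshold there.

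Among 9 metaphyseal stromal genes 2 were called higher in positive cells, the matrix genes Postn (3.64, adjusted p = 0.042 in edgeR) and Col1a1 (3.62, adjusted p = 0.044), and 6 higher and 1 lower over all BMSC-like cells, beside the 50.6% of all genes called there. Of 10 stress and dissociation genes 4 were called higher in positive cells, Fos by 2.15 among them, and 7 over all BMSC-like cells, where 50.6% of all genes were called. Of 9 blood genes that enter droplets as free RNA, edgeR called 0 in positive cells, with 2 at an unadjusted p under 0.05 and 0 called by DESeq2, and their median was 2.02. Hbb-bs measured 98.9 and 1075 normalised CPM in Control and 7528 and 3305 in Fracture positive cells. The part of stress and of free RNA in the levels of the 6 genes was not tested beyond subtracting the level of each gene in erythroid-like cells, which left the median log2 difference in positive cells at -1.31. All calls in positive cells were lost when a Fracture preparation was left out, with 0 genes called by edgeR without preparation 1 or 2, and 3016 and 2838 genes at an unadjusted p under 0.05. With so few positive Fracture cells, a gene not called in them is not shown to be unchanged.

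Relatives and pathway partners of the 6 genes were followed in the same fits. Fmo1, the other flavin monooxygenase with an appreciable level in these cells, measured 157 and 155 normalised CPM in Control and 23.8 and 27.0 in Fracture cells of the whole class, a log2 difference of -2.62 (adjusted p = 0.00108 in edgeR). In positive cells it measured 216 and 193 against 155 and 147, -0.44 with an adjusted p of 0.127, so that Fmo1 kept most of its level in cells where Fmo2 did not. Fmo5 was at -1.81 (adjusted p = 0.0029 in edgeR) over the class and at -1.29 (adjusted p = 0.107) in positive cells. For the P2Y receptors only P2ry1 could be tested beside P2ry14, at -1.67 (adjusted p = 0.00539) over the class and -0.56 (adjusted p = 0.511) in positive cells.

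In the kinin system 3 of 5 tested genes were called lower over all BMSC-like cells and 1 higher, where 50.6% of all genes were called. Serping1, the inhibitor of C1 and kallikrein, differed by -2.40, the kinin-degrading peptidases Mme and Ace by -1.66 and -0.68, and the inducible bradykinin receptor gene Bdkrb1 by 2.34, at 0.694 and 0.688 normalised CPM in Control against 3.07 and 4.01 in Fracture cells. In positive cells 3 genes could be tested, of which edgeR called 0, with 2 at an unadjusted p under 0.05 and 2 called by DESeq2. Serping1 was at -1.10 there (adjusted p = 0.0648). Among genes of glutathione and leukotriene processing 6 of 10 were called over the class, beside the 50.6% of all genes. Called higher were 4, Anpep (1.98), Ltc4s (2.03), Lap3 (0.95) and Gss (0.73), and 2 lower, Ggt5 (-1.98) and Alox5ap (-1.99). Dpep1 acts after the gamma-glutamyl transferase that Ggt5 codes for. In positive cells 7 could be tested, of which edgeR called 0, with 3 at an unadjusted p under 0.05 and 2 called by DESeq2, and the median was 0.10.

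Esm1 is grouped with endothelial tip cell genes elsewhere, and 7 others of that list were tested in BMSC-like cells. Angpt2, which codes for the angiopoietin that opposes Tie2 signalling, was called lower in positive cells, at 77.5 and 80.3 normalised CPM against 15.5 and 18.2 (log2 difference -2.21, adjusted p = 0.042 in edgeR), and over the class (-2.16). Cxcr4 (-2.25) and Nid2 (-1.17) were also called lower over the class, and Plaur (4.14) and Apln (3.38) higher, which makes 5 of 7 called beside 50.6% of all genes. Angpt2 was thus the 1 gene of these 7 that was called in positive cells.

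Outside the marrow stroma the 6 genes had different second sites. In Control bone Fmo2 was next highest in endothelial-like cells, at 105 and 43.8 plain CPM, and in fibroblast-like cells, at 33.8 and 53.0 CPM, which overlap. Smooth muscle-like (11.2 and 7.64 CPM) and chondrocyte-like cells (7.90 and 8.11 CPM) followed and also overlap. P2ry14 had no single site: smooth muscle-like cells at 39.1 and 98.6 CPM overlapped with BMSC-like cells at 52.1 and 82.8 CPM, and granulocyte-like cells held 42.7 and 44.3 CPM. Megakaryocyte-like cells held 17.5 and 18.5 CPM of P2ry14.

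Esm1 in Control bone came next in endothelial-like cells at 50.6 and 56.4 CPM, then in smooth muscle-like cells at 44.2 and 28.3 CPM. Kng1, Kng2 and Dpep1 were at most 16.7 CPM in any other class, and in the stromal classes their order overlapped. In Control preparations BMSC-like cells held 76.0% and 86.9% of all Fmo2 UMIs, 34.7% and 57.0% of those of P2ry14 and 91.2% and 96.4% of those of Kng1. After fracture they held 23.1% and 30.8% for Fmo2 and 5.62% and 22.4% for P2ry14, but 75.1% and 76.1% for Kng1. For Esm1 the share was 89.9% and 93.6% in Control and 18.7% and 25.5% in Fracture preparations. The kininogen gene therefore remained chiefly in BMSC-like cells, whereas most Fmo2 and Esm1 molecules of Fracture bone came from other cells. Most P2ry14 molecules lay outside BMSC-like cells in Control preparation 1 already, where granulocyte-like cells held 44.3% of them.

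**Figure D5:**
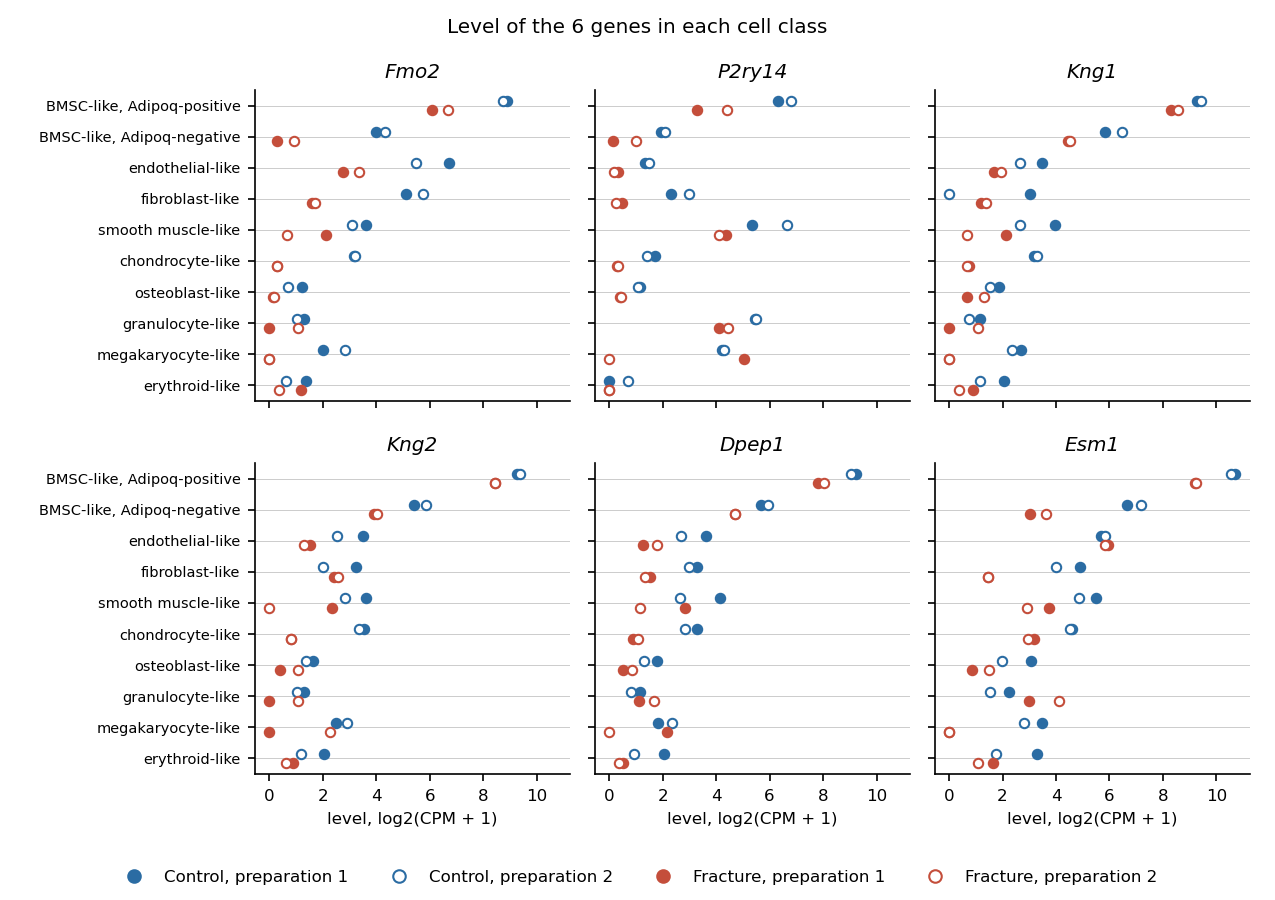
Level of each gene as log2(CPM + 1) in 10 sets of cells, Control in blue and Fracture in red, preparation 1 filled and preparation 2 open. Adipoq-positive BMSC-like cells stand highest in Control bone, with overlap with smooth muscle-like cells for P2ry14, and for Esm1 in endothelial-like cells the Fracture points lie above the Control points, at 61.2 and 56.7 CPM against 50.6 and 56.4 CPM.

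Levels in the other classes did not enter the choice of the genes, and changes there were tested with edgeR over all genes of each class. Adipoq was also lower without overlap in endothelial-like, osteoblast-like, chondrocyte-like and fibroblast-like cells. How far stromal RNA carried the chosen decrease into these droplets was not tested, so the tests cannot be taken as independent of the choice. In endothelial-like cells 5 of 6 were called lower, beside 16.6% of all genes. Fmo2 measured 100 and 42.1 normalised CPM in Control and 6.05 and 9.87 in Fracture cells, a log2 difference of -3.16 (SE 0.52, adjusted p = 0.0178 in edgeR). P2ry14 (-2.86, from at most 15 UMIs), Kng2 (-2.06), Dpep1 (-1.95) and Kng1 (-1.49) were called with adjusted p of 0.0152, 0.0339, 0.0409 and 0.0466 in edgeR. With the called doublets removed, of these 5 genes only Fmo2 kept its call (-3.08, adjusted p = 0.0186 in edgeR): Kng2, Dpep1 and Kng1 were then at -1.04, -0.68 and -0.29 with adjusted p of 0.187, 0.357 and 0.621, and P2ry14 could not be tested. Esm1 was the exception, at 48.2 and 54.3 normalised CPM against 63.6 and 60.0, a difference of 0.27 (SE 0.093, adjusted p = 0.0868 in edgeR). In edgeR it was 0.71 (adjusted p = 0.0703) without doublets and 0.19 to 0.35 with a preparation left out, and in DESeq2 it was 0.27 (adjusted p = 0.19).

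Marrow stromal RNA was present in these droplets, since Adipoq measured 69.0 and 29.7 plain CPM in Control and 14.9 and 8.68 in Fracture endothelial-like cells. Per 100 Adipoq molecules the endothelial-like cells of Control bone held 14.9 and 18.0 of Kng1, close to the 19.0 and 23.2 of the BMSC-like cells, but 152 and 148 of Fmo2 against 14.3 and 13.9, and 73.3 and 190 of Esm1 against 51.4 and 49.3. The Fmo2 level of endothelial-like cells was therefore above the proportion to Adipoq found in marrow stromal cells, and that of Kng1 was not. The part of stromal RNA in the lower levels was not tested. Without either Fracture preparation edgeR called 0 genes in this class, with 3904 and 4201 at an unadjusted p under 0.05, whereas Fmo2 stayed between -3.63 and -2.38 over 9 alternatives.

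In fibroblast-like cells 4 of 5 tested genes were called lower, beside 7.48% of all genes. Fmo2 measured 33.8 and 51.5 normalised CPM against 2.05 and 2.31 (-4.23, adjusted p = 0.00628 in edgeR), and Esm1, P2ry14 and Dpep1 differed by -3.66, -3.98 and -2.19. P2ry14 rested on 12 and 9 UMIs in Control against 3 and 2 in Fracture cells, and Dpep1 on 27 and 9 against 15 and 15. Kng2 did not pass, at 8.54 and 2.94 against 4.49 and 5.03 normalised CPM (-0.45, adjusted p = 0.536 in edgeR). Adipoq in these cells was 75.8 and 9.09 CPM against 1.89 and 3.16 CPM, highest in Control preparation 1. Per 100 Adipoq molecules Fmo2 was at 44.6 and 583 in Control against 107 and 71.0 in Fracture cells. The groups overlapped in this ratio, as they did for Esm1, P2ry14 and Dpep1. Kng2 was higher relative to Adipoq, at 11.3 and 33.3 against 233 and 155. The part of stromal RNA in these levels was not tested.

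Chondrocyte-like cells held all of the genes at low levels, and 6 of 6 were called lower, beside 18.9% of all genes. Fmo2 differed by -4.97, Kng2 by -3.54, Kng1 by -3.51, P2ry14 by -2.90 and Dpep1 by -2.76, all from less than 10 normalised CPM in Control cells. Esm1 went from 21.7 and 20.6 to 8.47 and 7.20 (-1.43, adjusted p = 0.00249 in edgeR). Adipoq went from 41.1 and 27.6 to 2.50 and 3.57 plain CPM in the same cells. Per 100 Adipoq molecules, Kng1 was at 19.7 and 31.5 in Control against 27.3 and 17 in Fracture cells and Kng2 at 25.7 and 33.5 against 30.9 and 20.6, with overlap and near the 19.0 and 23.2 of Kng1 and the 18.9 and 22.1 of Kng2 in Control BMSC-like cells, so that these kininogen UMIs were not lower relative to Adipoq. Fmo2 was lower relative to it, at 19.2 and 29.4 against 8.64 and 6.41, while P2ry14 (5.46 and 6.12 against 9.09 and 6.96) and Dpep1 (21.5 and 22.2 against 34.1 and 31.5) were higher. Over all BMSC-like cells Dpep1 was likewise higher, at 18.6 and 17.7 in Control against 34.8 and 31.1 in Fracture cells. Fmo2 (14.3 and 13.9 against 3.42 and 5.81) was lower there too, whereas P2ry14 (2.39 and 3.63 against 0.52 and 1.74) went the other way. Esm1 per 100 Adipoq molecules was 56.3 and 79.6 in Control against 321 and 187 in Fracture cells.

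In osteoblast-like cells 2 of 6 were called lower, beside 6.66% of all genes, Fmo2 (-3.05, adjusted p = 0.034 in edgeR) and P2ry14 (-1.83, adjusted p = 0.0259), both under 1.4 normalised CPM. Adipoq in these cells was 12.1 and 7.53 plain CPM in Control against 1.39 and 3.52 in Fracture cells. Per 100 Adipoq molecules in Control, Fmo2 (10.8 and 8.39) was below the 14.3 and 13.9 of BMSC-like cells, whereas P2ry14 (10.0 and 14.8) was above their 2.39 and 3.63. Fmo2 could not be tested without doublets, and P2ry14 was not called by DESeq2 (adjusted p = 0.0812). In smooth muscle-like cells 3 could be tested and 2 were called lower, beside 11.7% of all genes. P2ry14 measured 39.4 and 98.8 normalised CPM against 19.9 and 16.7 (-1.88, adjusted p = 0.0411 in edgeR) and Esm1 44.5 and 28.3 against 12.4 and 6.78 (-1.96, adjusted p = 0.0201, and -1.29 with an adjusted p of 0.0499 without doublets). Fmo2 there differed by -2.30 (adjusted p = 0.0562 in edgeR). Adipoq in these cells was 60.4 and 27.5 plain CPM in Control against 42.6 and 3.01 in Fracture cells. Per 100 Adipoq molecules the groups overlapped for Esm1 (73.1 and 103 against 28.6 and 220) and for P2ry14 (64.7 and 358 against 46.0 and 540). Leaving out either Fracture preparation left edgeR with 0 calls in the osteoblast-like, fibroblast-like and smooth muscle-like classes, with 1630 to 2860 genes at an unadjusted p under 0.05. The granulocyte-like cells, not tested, held P2ry14 at 16.3 and 20.9 CPM after fracture against 42.7 and 44.3 CPM.

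After fracture BMSC-like cells, taken as a whole class, stood lower among the classes for Esm1 and P2ry14. For Fmo2 they no longer stood apart from endothelial-like cells. For Esm1 and Fmo2 this held only for the whole class. The Adipoq-positive cells of the class still stood above endothelial-like cells, with Esm1 at 581 and 601 plain CPM and Fmo2 at 67.2 and 103 CPM. Their P2ry14, at 8.67 and 20.2 CPM, overlapped with smooth muscle-like and granulocyte-like cells. In Control bone it had stood above granulocyte-like cells, at 78.9 and 112 CPM against 42.7 and 44.3 CPM. Among whole classes Esm1 was highest in endothelial-like cells, at 61.2 and 56.7 CPM, above the 34.5 and 49.4 CPM of BMSC-like cells. Fmo2 in endothelial-like cells, at 5.82 and 9.33 CPM, overlapped with BMSC-like cells, at 3.41 and 7.49 CPM. P2ry14 in smooth muscle-like and granulocyte-like cells, at 19.6 and 16.3 CPM and 16.3 and 20.9 CPM, overlapped and lay above BMSC-like cells, and megakaryocyte-like cells held 31.7 CPM, from 9 UMIs, and 0 CPM. For Kng1, Kng2 and Dpep1 the BMSC-like cells remained highest.

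The genes were also compared with 6899 others by the likeness of their levels over 32 profiles, made of 8 sets of cells in 4 preparations. Pearson's r of log2(CPM + 1) is a description here, since the profiles share preparations and differ in depth and in how many stromal cells they hold. Kng1 was most like Kng2 (0.98), Marc1 (0.98) and Dpep1 (0.97). Kng2 was most like Dpep1 (0.98), Kng1 (0.98) and Il7 (0.97), and Dpep1 most like Kng2 (0.98), Aldh1a2 (0.98) and Kng1 (0.97). Fmo2 was most like Il15 (0.92), Plscr4 (0.91) and Apoe (0.90). P2ry14 was most like Tusc5 (0.92), Rarres2 (0.90) and Klhl29 (0.90), and Esm1 most like Shroom3 (0.96), Cxcl12 (0.94) and Trf (0.93). Kng1, Kng2 and Dpep1 thus formed the tightest group among the 6, and P2ry14 had r of 0.60 to 0.67 with the other 5.

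The genes that lie between or across the members were read in positive cells as well. Between Kng1 and Adipoq, Eif4a2, a translation initiation factor gene, measured 232 and 222 plain CPM in Control and 113 and 98.3 CPM in Fracture cells (-1.02, adjusted p = 0.045 in edgeR), and Rfc4, a replication factor gene, differed by -0.31 (adjusted p = 0.801). Med12l, which contains P2ry14, measured 9.69 and 10.2 CPM against 6.5 and 13 CPM, and Gzmk, which overlaps Esm1, 9.69 and 9.95 CPM against 6.5 and 10.1 CPM. For both of these genes the groups overlapped. Gm6493, a pseudogene inside Kng2 on the same strand, measured 15.1 and 24.6 CPM against 0 and 10.1 CPM without overlap (-1.67, adjusted p = 0.323 in edgeR).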

How the data were processed

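Single-cell RNA was measured in 8 libraries of femoral stromal cells, 4 Control and 4 Fracture, with the Chromium 3′ v3 kit. The authors deposited a table for each library with raw counts of UMIs for every gene in every barcode. The submitters' processing notes name bcl2fastq 2.19.1.403, UMI-tools 1.0.0, STAR 2.7.3a, Subread, featureCounts 1.6.4 and mm10, whereas the published methods name STARsolo, and which step made these tables is not settled. Barcodes had been selected before deposit.

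Cells with 500 to 6000 genes and at most 25% mitochondrial UMIs were kept, as were genes in at least 3 cells (26180 of 28956). Preparations were integrated in Seurat 5.3.0 by canonical correlation (30 dimensions) with 1943 of 2000 variable genes, after the 6 genes, Adipoq and cell cycle genes had been taken out, and clustered with 12 components at a resolution of 0.1 (10 clusters). Clusters were named from fixed marker lists. Scrublet, run in scanpy 1.11.5 at an expected 6%, called 722 doublets (1.59%), which were kept outside the alternative without them. Adipoq calls and shares of cells used 3000 UMIs drawn from each cell and left out cells with fewer.

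The 2 libraries of a preparation were summed, so n = 2 per group, and since the study calls its replicates independent without saying whether separate animals were used, p-values measure only the spread between these samples, which may be technical. Levels in plain CPM are the UMIs of a gene scaled by the total of the cells summed, and normalised CPM are those of edgeR. Tests used edgeR 4.0.16 (quasi-likelihood, TMM, filterByExpr, Benjamini-Hochberg adjusted p under 0.05) where each preparation held at least 20 cells of a class, in R 4.3.3 with limma 3.58.1 and Matrix 1.6.5. DESeq2 1.42.0 was an alternative. Shares were compared with scipy 1.17.1, and numpy 2.4.6, pandas 2.3.3 and matplotlib 3.10.9 ran on Python 3.11.15. The edgeR step was tested on simulated data with known changes. The members and gene lists were chosen with earlier results of these data known. Named genes were the 6 members, list genes called in the class or its positive cells, at most 6 a list by adjusted p, the 3 genes most like each member, and, added after their values were seen, genes that overlap or neighbour a member, Pparg, Cebpa and Hbb-bs.

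Other settings were DESeq2 size factors, DESeq2, no filter on low counts, a replicate block, each preparation left out, doublets removed, a gate on Cxcl12 (5 UMIs) without clustering, at least 2 Adipoq UMIs, no thinning, a split by Lepr and subtraction of the erythroid-like level. A resolution of 0.5, a split by cluster and 5 bins of Adipoq UMIs were added after seeing the data. The count over the list of flavin monooxygenases is not reported here. Little pairing of the preparations by replicate number was seen, but a pairing is not excluded. Counting error is the only error that UMI totals describe.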

Additional observations from a re-analysis of the deposited data

Results flagged for a closer look

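Esm1 in endothelial-like cells differed in direction from Esm1 in BMSC-like cells in plain CPM. The log2 difference of Fracture from Control was 0.14 in endothelial-like and -4.74 in BMSC-like cells. In endothelial-like cells the groups stood apart only by 56.7 CPM in Fracture against 56.4 CPM in Control preparation 2. The edgeR difference there was 0.27 (adjusted p = 0.0868), 0.71 without doublets (adjusted p = 0.0703) and 0.27 with the replicate block (adjusted p = 0.142). DESeq2 gave 0.27 (adjusted p = 0.19), and edgeR gave 0.19 to 0.35 with a preparation left out. The difference between classes was not tested, and no explanation was weighed.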

How the results depend on the processing

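In Adipoq-positive and Adipoq-negative BMSC-like cells all 6 genes were lower under each of 16 alternatives, a direction that their choice fixes. The median log2 difference of the 6 in positive cells (-1.31) was -1.09 with the Cxcl12 gate, -1.12 at a resolution of 0.5, -0.94 with at least 2 Adipoq UMIs, -1.51 without thinning, -2.69 split by Lepr, -1.70 split by cluster, -1.21 with DESeq2 size factors, -1.20 in DESeq2, -1.22 with the replicate block, and -1.40 to -1.22 with a preparation left out. In negative cells (-2.08) it was -3.69 split by cluster and -2.94 to -1.68 with a preparation left out. At Control weights (-1.33) it was -1.10 with the gate, -1.12 at a resolution of 0.5, -0.97 with at least 2 Adipoq UMIs, -1.51 without thinning, -2.70 split by Lepr, -1.82 split by cluster, -0.79 over 5 bins, and -1.41 to -1.24 with a preparation left out. The cause was not tested for any of these.

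The edgeR calls in positive cells (144) numbered 0 without a filter (3212 genes at an unadjusted p under 0.05), 0 with the gate, at a resolution of 0.5 or with at least 2 Adipoq UMIs, 273 without doublets, 778 without thinning, 4032 split by Lepr, 921 split by cluster, 1365 in DESeq2 and 0 to 1238 with a preparation left out. Over all BMSC-like cells (7441) there were 2616 with the gate, 4009 at a resolution of 0.5 and 2150 to 9151 with a preparation left out, and in negative cells (4540) 746, 1151 and 193 to 5946. With a preparation left out the calls ran from 0 to 7221 in endothelial-like (5007), 0 to 5481 in osteoblast-like (2285), 1010 to 8913 in chondrocyte-like (6767), 0 to 4965 in fibroblast-like (1921) and 0 to 3857 in smooth muscle-like cells (2581). Among these, each count of 0 came without Fracture replicate 1 and without Fracture replicate 2. Without a filter there were 3346 fibroblast-like and 3915 smooth muscle-like calls.

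The replicate block gave 1254 osteoblast-like, 679 fibroblast-like and 1494 smooth muscle-like calls. The deviations of equal replicate numbers correlated at 0.001 to 0.085, so little pairing by number was seen. Such values cannot exclude that equal numbers were handled together. Under the block Kng1 and Dpep1 in endothelial-like and P2ry14 and Dpep1 in fibroblast-like cells were not called. Nor were Fmo2 and P2ry14 in osteoblast-like and P2ry14 in smooth muscle-like cells. Kng2 in fibroblast-like cells (-0.45) turned to 0.71 without Control replicate 1 and to 0.35 without doublets, with -0.83 to 0.71 over the left-out preparations. For single genes, 38 values lost their call and 17 gained one. The 63 and 96 positive Fracture cells limit the precision of every value in positive cells.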
